A study of Macaca mulatta with 8 samples.

Results

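CDKN1A, GADD45A, GADD45B and CDKN2C are genes that restrain the cell cycle, and they are described here in granulosa cells of the rhesus macaque after an ovulatory stimulus. The 4 genes are among 14132 genes with a single symbol on an Affymetrix rhesus macaque array. They were chosen by their measured differences between the 2 groups of this same contrast, so their values are given as a description and no test is attached to them. Their 8 probe sets (sets of short probes that together measure 1 transcript) were taken from 52766, by the platform annotation giving exactly 1 of the 4 symbols. CDKN1A and CDKN2C have 1 probe set each, and GADD45A and GADD45B have 3 each, of which the one with the highest mean signal over all arrays is called the main probe set.

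The first group, VVM-GC, holds 4 samples of granulosa cells from follicles of animals given follicle-stimulating hormone (FSH) and then human chorionic gonadotropin (hCG), which acts in place of the ovulatory surge of luteinizing hormone. The second group, PM-GC, holds 4 samples from follicles under FSH alone, so both groups share the FSH treatment. The series design calls the cells mural granulosa cells, those lining the follicle wall, whereas the sample labels name cumulus-oocyte complexes as the source. The labels are silent on the age of the animals, on the time between hCG and collection and on which animals gave which sample, so p-values reflect the spread between samples, which may be technical in part. Values are log2 intensities, and differences are VVM-GC minus PM-GC on the log2 scale with their standard error (SE).

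Granulosa cells of the growing follicle divide under FSH. After the ovulatory surge they leave the cell cycle and luteinize, that is, they turn into progesterone-making cells. CDKN1A encodes p21, which binds and inhibits complexes of cyclins with cyclin-dependent kinases (CDKs) and also binds the replication clamp PCNA. CDKN2C encodes p18, of the INK4 family, which binds the G1 kinases CDK4 and CDK6. GADD45A and GADD45B encode small stress-inducible proteins known from human and mouse cells to bind p21, PCNA and the kinase CDK1, and to activate MAP3K4, a kinase upstream of p38 and JNK.

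Median log2 intensities lay between 5.44 and 5.54 over the 8 arrays, and arrays correlated across probe sets at a Pearson r of 0.974 to 0.984 within VVM-GC, 0.984 to 0.988 within PM-GC and 0.935 to 0.957 between them. The difference between the 3' and 5' probe sets of ACTB, a measure of RNA integrity, ran from 4.47 to 5.18 in VVM-GC and from 4.70 to 4.80 in PM-GC. The RNA had been amplified over repeated cycles, and the part of that amplification in the ACTB difference was not tested. Of 16 granulosa markers 13 were measured, of which 1 rose and 11 fell at a limma adjusted p under 0.05. Over all genes 11.3% rose and 12.5% fell at that threshold. The riser was WT1, by 3.94 with its main probe set, while its other differed by 0.13. Among those that fell was INHA, the inhibin alpha subunit, at 13.37 to 13.77 in VVM-GC and 14.01 to 14.18 in PM-GC. FSHR, FOXL2 and LHCGR were not analysed here. In bulk samples, fewer cells of a type and less RNA per cell cannot be told apart.

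CDKN1A had log2 intensities of 12.56, 12.55, 12.87 and 12.66 in VVM-GC arrays 1 to 4, against 9.02, 9.21, 8.81 and 8.87 in PM-GC arrays 1 to 4. All VVM-GC arrays were far above all PM-GC arrays, with 3.34 log2 units between the lowest of the first and the highest of the second. The means were 12.66 ± 0.15 in VVM-GC and 8.98 ± 0.18 in PM-GC (SD, n = 4 each), a difference of 3.68 (SE 0.13) or 12.9-fold. The arrays of a group also lay close together for this gene: its SD within groups, averaged over both, was 0.16, and 29.0% of all genes had a smaller one. Leaving out any 1 array moved the difference to between 3.61 and 3.76.

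GADD45A read 11.82, 12.02, 11.53 and 10.87 in VVM-GC arrays 1 to 4 with its main probe set, against 8.25, 8.05, 6.35 and 6.63 in PM-GC arrays 1 to 4. The groups did not overlap, but PM-GC split into a higher pair, arrays 1 and 2, and a lower pair, arrays 3 and 4. The means were 11.56 ± 0.51 in VVM-GC and 7.32 ± 0.97 in PM-GC (SD, n = 4 each), a difference of 4.24 (SE 0.44) or 18.9-fold. Its SD within groups, 0.77, was wider than that of 98.3% of all genes.

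The other probe sets of GADD45A did not show this difference. The second had 8.93, 8.49, 7.79 and 9.14 in VVM-GC arrays 1 to 4, against 8.10, 8.74, 9.34 and 7.96 in PM-GC arrays 1 to 4, a difference of 0.05 (SE 0.35). The third had 7.56, 7.30, 6.87 and 7.12 in VVM-GC, against 6.47, 7.05, 7.39 and 6.86 in PM-GC, a difference of 0.27 (SE 0.21). Both overlapped between the groups, and both were highest among PM-GC in array 3, the array where the main probe set was lowest. Averaged over its 3 probe sets, GADD45A was 1.52 (SE 0.20) higher in VVM-GC. Where each probe set lies along the transcript was not analysed here.

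GADD45B read 11.45, 11.57, 10.31 and 11.50 in VVM-GC arrays 1 to 4 with its main probe set, against 7.36, 7.08, 6.83 and 7.48 in PM-GC arrays 1 to 4. The groups did not overlap, and VVM-GC array 3 stood more than 1 log2 unit below the other arrays of its group. The means were 11.21 ± 0.60 in VVM-GC and 7.19 ± 0.29 in PM-GC (SD, n = 4 each), a difference of 4.02 (SE 0.28) or 16.2-fold. The groups were also apart with the other probe sets of GADD45B. One of them, whose name carries the suffix Affymetrix gives to probe sets that can match more than 1 transcript, had 12.36, 11.78, 10.53 and 11.64 in VVM-GC, against 7.08, 6.53, 5.84 and 6.62 in PM-GC, a difference of 5.06 (SE 0.37). The third had 10.81, 10.35, 9.50 and 10.57 in VVM-GC, against 6.93, 7.03, 6.92 and 6.44 in PM-GC, a difference of 3.48 (SE 0.26). In all 3 the lowest VVM-GC array was array 3, and in all 3 the groups were at least 2.46 log2 units apart.

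CDKN2C read 8.13, 8.22, 8.52 and 9.02 in VVM-GC arrays 1 to 4, against 8.83, 9.41, 9.69 and 8.999 in PM-GC arrays 1 to 4. It is the gene of the 4 whose groups overlapped: VVM-GC array 4 was above PM-GC arrays 1 and 4. The means were 8.47 ± 0.40 in VVM-GC and 9.23 ± 0.39 in PM-GC (SD, n = 4 each), a difference of -0.76 (SE 0.24), or 1.70-fold lower in VVM-GC. Leaving out 1 array gave differences from -0.95, without VVM-GC array 4, to -0.61, without PM-GC array 3.

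**Figure D1:**
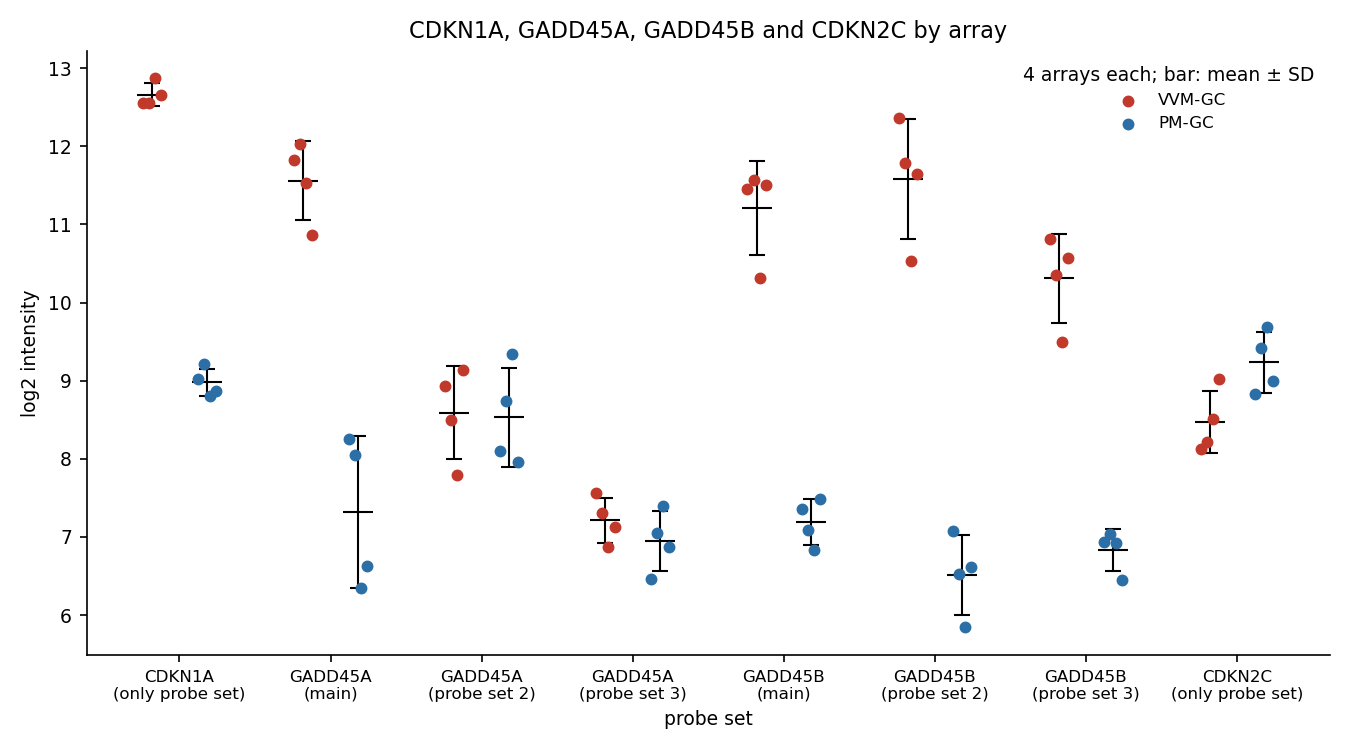
Log2 intensity of each of the 8 arrays for the 8 probe sets of CDKN1A, GADD45A, GADD45B and CDKN2C, with VVM-GC in red and PM-GC in blue; bars are mean ± SD of 4 arrays. The groups are apart for CDKN1A, the main probe set of GADD45A and all 3 of GADD45B, and overlap for CDKN2C and the other probe sets of GADD45A.

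In the fit over all genes (limma, Benjamini-Hochberg adjusted p, threshold 0.05), 11.3% of genes were past the threshold as higher in VVM-GC and 12.5% as lower, and the groups did not overlap for 27.2%. CDKN1A, GADD45A and GADD45B were past it as higher and CDKN2C as lower, which the choice of these genes fixes. In the fit over all probe sets, where 7.24% were past the threshold as higher, the CDKN1A probe set, 1 of GADD45A and 3 of GADD45B were among them, and the CDKN2C probe set did not pass. By size, GADD45A, GADD45B and CDKN1A had the increases ranked 51, 64 and 82 among 14132 genes, and CDKN2C had the decrease ranked 1023. The rank of GADD45A rests on its main probe set, which was the brightest over all arrays only through VVM-GC. In PM-GC that probe set averaged 7.32, against 8.53 for the second, and in VVM-GC 11.56 against 8.59.

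The high and low arrays were not the same for the 4 genes. In VVM-GC array 3, CDKN1A was 0.21 above its group mean and CDKN2C was at 0.04, while GADD45B was at -0.90 with its main probe set. GADD45A was at -0.03 there with its main probe set, but at -0.80 and -0.34 with the others, each of which was lowest in array 3 within VVM-GC, as all 3 of GADD45B were. In VVM-GC array 4, CDKN2C was 0.55 above its group mean and the main probe set of GADD45A was at -0.69. VVM-GC array 3 also had the largest ACTB 3' to 5' difference of the 8 arrays, 5.18. It had the lowest level of leukocyte markers as well: the mean over 8 measured markers was 5.40 there, against 6.71 to 7.05 in the other VVM-GC arrays, and 6 of the 8 markers, among them PTPRC and LYZ, were lowest there within the group. The part of either in the low values of GADD45B and of those GADD45A probe sets in that array was not tested. Without that array GADD45B was 4.32 higher in VVM-GC. The summed intensity of the 8 leukocyte markers was 447 to 1267 in VVM-GC and 1355 to 1509 in PM-GC; 1 of them, CSF1R, fell and 7 did not pass. Without CSF1R the other 7 summed to 1028, 1054, 317 and 963 in VVM-GC arrays 1 to 4, against 765, 755, 520 and 911 in PM-GC arrays 1 to 4, so that 3 of the 4 VVM-GC arrays were then above all PM-GC arrays and array 3 was below them.

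**Figure D2:**
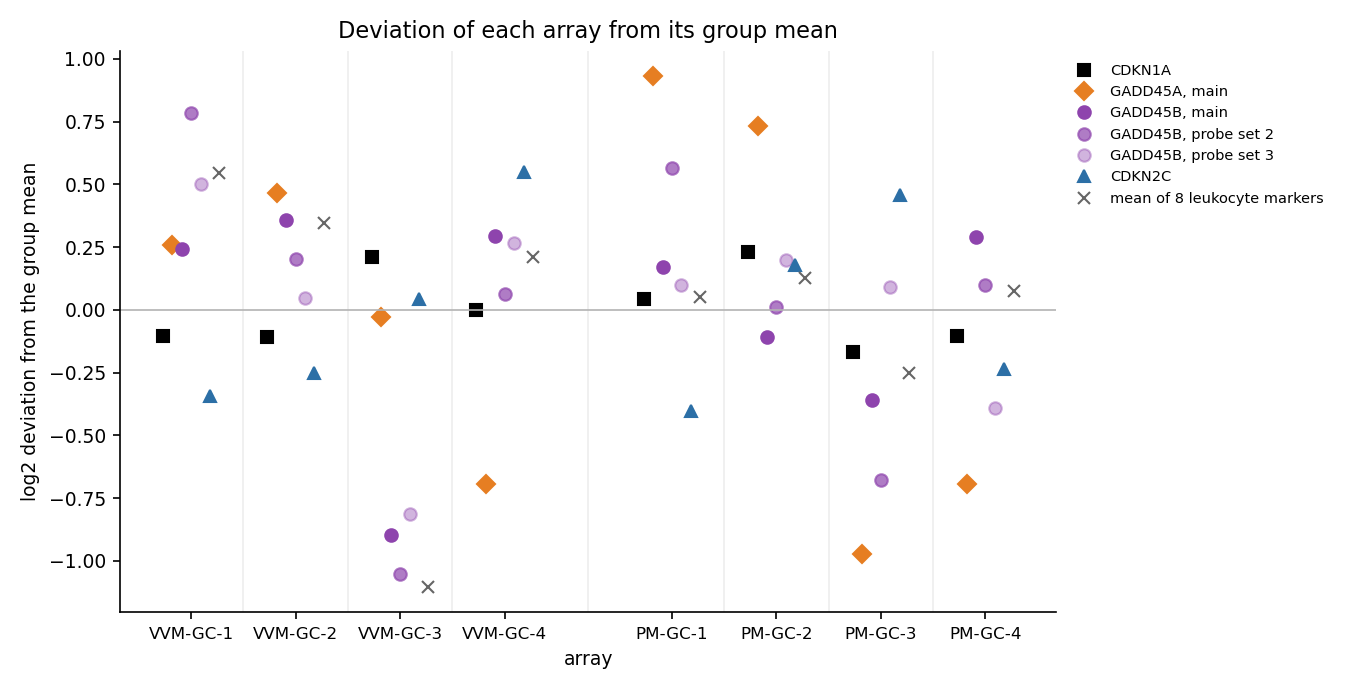
Log2 deviation of each array from the mean of its own group, for CDKN1A, the main probe set of GADD45A, the 3 probe sets of GADD45B, CDKN2C and the mean of 8 leukocyte markers. The GADD45B probe sets and the leukocyte markers are lowest together in VVM-GC array 3, where CDKN1A is at 0.21 and CDKN2C at 0.04.

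The other inhibitors of cyclin-dependent kinases did not share the increase of CDKN1A. Beside CDKN1A and CDKN2C, 4 of 6 listed genes were measured, of which 0 rose, 1 fell and 3 did not pass, with a median difference of -0.24 against -0.09 over all genes tested. Among all genes 11.3% rose and 12.5% fell. The count of 0 under limma's adjusted p was also 0 at an unadjusted p under 0.05, although CDKN2D passed as higher without VVM-GC array 3 and without PM-GC array 2. CDKN1B, which encodes p27, read 7.61, 7.60, 7.69 and 8.50 in VVM-GC, against 8.21, 8.11, 8.67 and 8.16 in PM-GC. Array 4 set VVM-GC apart within itself here, and the difference was -0.44 (SE 0.22, limma adjusted p = 0.19), or -0.65 with an adjusted p of 0.018 without that array. CDKN2D, which encodes p19, averaged 8.90 ± 0.37 in VVM-GC and 8.40 ± 0.40 in PM-GC (SD, n = 4 each, limma adjusted p = 0.157). CDKN2A, the gene of p16 and ARF, averaged 6.22 ± 0.19 in VVM-GC and 6.27 ± 0.22 in PM-GC, with 3 probe sets that all failed to pass.

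The list member that fell was CDKN3, a phosphatase that acts on CDK2 and whose transcript is known to be abundant in dividing cells. It read 6.41, 6.33, 6.87 and 6.27 in VVM-GC, against 8.50, 8.58, 9.08 and 9.57 in PM-GC. The groups did not overlap, and the difference was -2.46 (SE 0.24, limma adjusted p = 0.000104); its second probe set differed by -0.29 and did not pass, and the average of both fell by 1.38.

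GADD45G, the remaining gene of the GADD45 family, read 8.74, 8.02, 7.11 and 7.79 in VVM-GC, against 8.41, 8.09, 7.86 and 7.97 in PM-GC. The groups overlapped and its difference was -0.17 (SE 0.30, limma adjusted p = 0.721); as for GADD45B, array 3 was the lowest in VVM-GC. GADD45GIP1, which encodes a protein that binds GADD45 proteins, differed by -0.40 (SE 0.23, limma adjusted p = 0.249).

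Of the 16 measured genes on the list of GADD45 family and partners beside GADD45A and GADD45B, 2 rose, 2 fell and 12 did not pass, with a median of -0.12. These counts were near the shares over all genes, 11.3% higher and 12.5% lower. MAP3K4, the kinase that GADD45 proteins activate, read 8.21, 7.95, 8.16 and 7.36 in VVM-GC, against 9.26, 9.10, 9.14 and 9.20 in PM-GC. It fell by 1.25 (SE 0.18, limma adjusted p = 0.000949), with no overlap. Below MAP3K4 in that pathway, 0 of 7 measured kinases passed with limma and 4 had an unadjusted p under 0.05. Of all 14132 genes, 2162 were higher and 2853 lower at that unadjusted limma threshold. MAP2K3, MAP2K4, MAP2K7, MAPK8, MAPK10, MAPK13 and MAPK14 had differences from -0.73 to 0.46.

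GADD45A has also been tied to the removal of DNA methylation, and the list holds enzymes of that process. TET1, which oxidises methylated cytosine, fell by 2.12 (SE 0.30, limma adjusted p = 0.00084). It read 4.84, 4.72, 5.99 and 4.73 in VVM-GC, against 7.13, 6.998, 7.75 and 6.89 in PM-GC, and its second probe set differed by -0.41 and did not pass, so that their average fell by 1.27. TET3, its paralog, rose by 1.17 (SE 0.19, limma adjusted p = 0.00168), with 2 of 3 probe sets higher and an average of 0.65. TET2 differed by -0.07. ERCC5, an endonuclease of nucleotide excision repair, rose by 1.03 (SE 0.18, limma adjusted p = 0.00243), with 3 of 5 probe sets higher and an average of 0.61.

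Among the genes of cyclins and kinases that the inhibitors act on as proteins, the transcripts of cyclin E and CDK2 fell. Those of the cyclin D genes CCND1 and CCND3, and of CDK4 and CDK6, did not pass. A part of the inhibitors in these transcript levels was not tested. CCND2 was not analysed here. On the list of G1 cyclins and their kinases of 11 genes measured 0 rose, 4 fell and 7 were not past the threshold, with a median of -0.22, and limma's count of 0 was also 0 at an unadjusted p under 0.05 and without each array in turn. CCNE1 read 6.74, 6.49, 6.39 and 6.41 in VVM-GC, against 7.70, 7.57, 8.04 and 8.02 in PM-GC, and fell by 1.32 (SE 0.14, limma adjusted p = 0.000176). CCNE2 fell by 1.89 (SE 0.18) with its main probe set, while its second differed by -0.10; it read 2.88 to 3.61 in VVM-GC and 4.79 to 5.34 in PM-GC, below the array medians, and with 32 added to each intensity it fell by 0.66. The average of both probe sets fell by 0.99. CDK2 fell by 0.97 (SE 0.20, limma adjusted p = 0.00573), with both probe sets lower.

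CCND1 averaged 6.64 ± 0.09 in VVM-GC and 6.63 ± 0.08 in PM-GC, and CCND3 averaged 8.73 ± 0.40 in VVM-GC and 8.76 ± 0.34 in PM-GC (SD, n = 4 each). CDK4 and CDK6 differed by -0.17 (SE 0.14, limma adjusted p = 0.425) and -0.22 (SE 0.14, limma adjusted p = 0.311). A difference between the cyclin E and cyclin D genes was not tested. PCNA, which both p21 and GADD45 proteins bind, read 8.63, 8.58, 8.997 and 8.22 in VVM-GC, against 9.84, 10.09, 10.71 and 10.96 in PM-GC. It fell by 1.79 (SE 0.26, limma adjusted p = 0.0009), with no overlap between the groups.

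**Figure D3:**
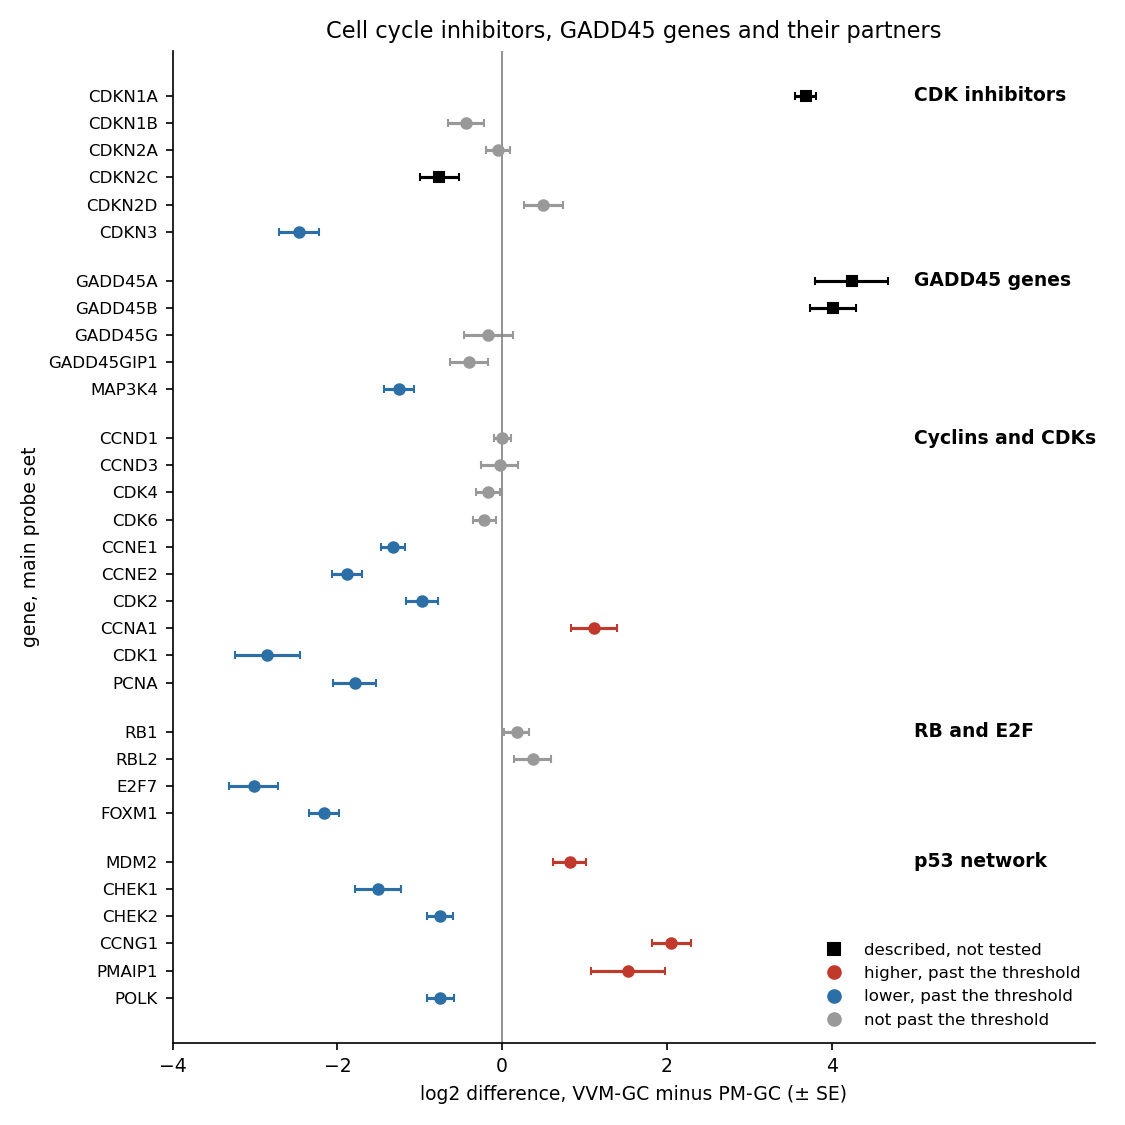
Log2 difference, VVM-GC minus PM-GC, with its SE, for the main probe set of inhibitors of cyclin-dependent kinases, GADD45 genes and partners, cyclins and kinases, RB and E2F genes, and the p53 network. Black squares are the 4 genes described without a test; CDKN1A, GADD45A and GADD45B lie between 3.68 and 4.24, and the cyclin E genes, CDK2, CDK1 and PCNA lie below 0.

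Most genes that act later in the cycle fell. Of 16 measured cyclins of S, G2 and M phase, with CDK1 and its regulators, 1 rose, 11 fell and 4 did not pass, with a median of -1.29. CDK1, the mitotic kinase that GADD45 proteins bind, read 6.75, 6.33, 6.93 and 6.71 in VVM-GC, against 9.59, 8.19, 10.26 and 10.07 in PM-GC. It fell by 2.85 (SE 0.40, limma adjusted p = 0.000733) and all 3 of its probe sets were lower, by as little as 0.66 in one; their average fell by 1.41. CKS2, a small subunit of CDK complexes, fell by 2.31 (SE 0.31). The gene that rose was CCNA1, a cyclin known from male germ cells, by 1.12 (SE 0.28, limma adjusted p = 0.0171); it did not pass with the replicate number as a block (adjusted p = 0.0534) or without PM-GC array 1 (adjusted p = 0.0504).

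Of 17 measured E2F target genes of DNA synthesis, 0 rose, 16 fell and 1 did not pass, with a median of -1.33 against -0.09 over all genes, and limma's count of 0 was also 0 at an unadjusted p under 0.05 and without each array in turn. The mean of this list was 6.79 to 7.33 in VVM-GC arrays and 8.25 to 8.72 in PM-GC arrays. MKI67, a marker of dividing cells, fell by 2.995 (SE 0.20), with 3 of 3 probe sets lower and an average that fell by 1.64. TOP2A, a topoisomerase of dividing cells, fell by 2.38 (SE 0.23), with both probe sets lower.

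The pocket proteins, which hold E2F factors in check when CDKs are inhibited, did not pass. RB1 averaged 10.03 ± 0.13 in VVM-GC and 9.85 ± 0.29 in PM-GC, and RBL2, known for its part in quiescence, averaged 8.56 ± 0.47 in VVM-GC and 8.19 ± 0.19 in PM-GC (SD, n = 4 each). On their list, with the E2F factors and the DREAM complex, of 17 genes measured 1 rose, 8 fell and 8 were not past the threshold, with a median of -0.21. E2F7, a repressor of the E2F family, read 5.51, 5.22, 4.77 and 4.16 in VVM-GC, against 7.51, 8.19, 8.32 and 7.71 in PM-GC, and fell by 3.02 (SE 0.29, limma adjusted p = 9.89e-05); its second probe set differed by -0.16, and their average fell by 1.59. FOXM1, an activator of mitotic genes, fell by 2.16 (SE 0.18, limma adjusted p = 4.88e-05). The riser was TFDP1, a dimer partner of E2F factors, by 0.80 (SE 0.22), named after its value was seen; it has a second probe set at -0.43. Its call was lost with its probe sets averaged (0.18, adjusted p = 0.37), with the replicate number as a block (adjusted p = 0.0576) and when any 1 of 5 of the 8 arrays was left out (adjusted p of 0.0516 to 0.0663).

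CDKN1A and GADD45A are textbook targets of p53, so other targets were listed. Of 30 measured p53 targets, 4 rose, 1 fell and 25 did not pass, with a median of -0.01. The mean of this list was 6.47 to 6.62 in VVM-GC arrays and 6.33 to 6.38 in PM-GC arrays. Over all genes 11.3% were past the threshold as higher and 12.5% as lower. Several targets that did not pass read below the array medians in both groups. Among them were PERP, averaging 2.75 in VVM-GC and 2.83 in PM-GC, and RPS27L, averaging 3.19 in VVM-GC and 2.99 in PM-GC. CCNG1, which encodes cyclin G1, read 12.05, 12.56, 12.88 and 12.77 in VVM-GC, against 10.56, 9.91, 10.79 and 10.79 in PM-GC. It rose by 2.06 (SE 0.24, limma adjusted p = 0.000257), with no overlap. PMAIP1, a promoter of apoptosis, rose by 1.53 (SE 0.45, limma adjusted p = 0.0351), but VVM-GC ranged from 5.08 in array 3 to 7.52 in array 1, and its call was lost when any 1 of 6 of the 8 arrays was left out (adjusted p of 0.0676 to 0.0849) and with 32 added to each intensity (0.99, adjusted p = 0.078). FAS and TP53I3, named after their values were seen, were the others, at 1.20 (SE 0.32) and 1.01 (SE 0.22), or 0.62 and 0.59 with 32 added to each intensity. The call of FAS was lost in that setting (adjusted p = 0.0681) and when any 1 of 3 arrays was left out (adjusted p of 0.0566 to 0.0634). POLK, a DNA polymerase that bypasses lesions, fell by 0.75 (SE 0.16), or by 0.42 with its probe sets averaged. The stress targets BTG2, SESN1, PLK2 and GDF15, also chosen after their values were seen, had differences of -0.06, -0.01, -0.03 and 0.02. BTG2 averaged 5.56 in VVM-GC and 5.62 in PM-GC, close to the array medians.

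Of 8 measured genes on the list of p53 and its regulators, 1 rose, 2 fell and 5 did not pass, with a median of -0.15. The shares over all genes were 11.3% higher and 12.5% lower. MDM2, the ubiquitin ligase of p53 and itself a p53 target, rose by 0.82 (SE 0.20, limma adjusted p = 0.0164), with 1 of 4 probe sets higher. The checkpoint kinases CHEK1 and CHEK2 fell by 1.51 (SE 0.28) and 0.76 (SE 0.16).

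Regulators known to act on CDKN1A or on exit from the cycle in other tissues changed in both directions, with the larger increases among CEBP factors. On the list of FOXO, KLF, CEBP and MXD factors of 15 genes measured 6 rose, 1 fell and 8 were not past the threshold, with a median of 0.12. CEBPA, a transcription factor known to stop division and to bind p21, read 11.22, 10.23, 8.54 and 10.98 in VVM-GC, against 6.27, 6.39, 6.16 and 5.83 in PM-GC. It rose by 4.08 (SE 0.50, limma adjusted p = 0.000346) with 3 of 3 probe sets higher, and as for GADD45B its lowest VVM-GC array was array 3, where the leukocyte markers were lowest too. CEBPB, its paralog, needed for luteinization in the mouse, read 12.52, 12.36, 11.48 and 12.51 in VVM-GC, against 10.09, 10.13, 9.82 and 9.48 in PM-GC, and rose by 2.34 (SE 0.25), again with array 3 lowest in VVM-GC; the part of leukocytes or RNA integrity in this was not tested. The other risers, named after their values were seen, were CEBPD, by 2.23 (SE 0.29), and 3 antagonists of MYC, MXI1, MXD3 and MXD4, by 0.65 to 0.99. The call of MXI1 was lost with the replicate number as a block (adjusted p = 0.0764), after adding 32 to the intensities (adjusted p = 0.0532) and when any 1 of 4 arrays was left out (adjusted p of 0.0795 to 0.0848). FOXO4, a forkhead factor, fell by 1.75 (SE 0.14, limma adjusted p = 3.21e-05). MYC itself differed by -0.14 (SE 0.57), with VVM-GC arrays from 6.93 to 9.78.

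On the list of BTG and TOB antiproliferative genes, of 5 genes measured 0 rose, 1 fell and 4 were not past the threshold, with a median of -0.33. The one that fell was TOB2, by 0.58 (SE 0.16, limma adjusted p = 0.0255), with 1 of 3 probe sets lower; it did not pass with its probe sets averaged (-0.30, adjusted p = 0.0924) or without 4 of the 8 arrays in turn. GADD45B is a known target of NF-kB, and of 9 measured NF-kB regulators 0 rose, 1 fell and 8 did not pass, with a median of 0.03. NFKBIA, the inhibitor that NF-kB induces, differed by 0.11. It read 5.89 to 6.11 in VVM-GC and 5.65 to 6.17 in PM-GC, not far above the array medians. The regulator that fell was NFKB2, by 0.59 (SE 0.17). NFKBIA and NFKB2 were both named after their values were seen. The call of NFKB2 was lost with its probe sets averaged (-0.19, adjusted p = 0.264), with the replicate number as a block (adjusted p = 0.0923) and when any 1 of 5 of the 8 arrays was left out (adjusted p of 0.0686 to 0.0914). The counts of 0 for both lists, from limma, were also 0 at an unadjusted p under 0.05 and without each array in turn. Beside both lists, 11.3% of all genes were past the threshold as higher and 12.5% as lower.

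**Figure D4:**
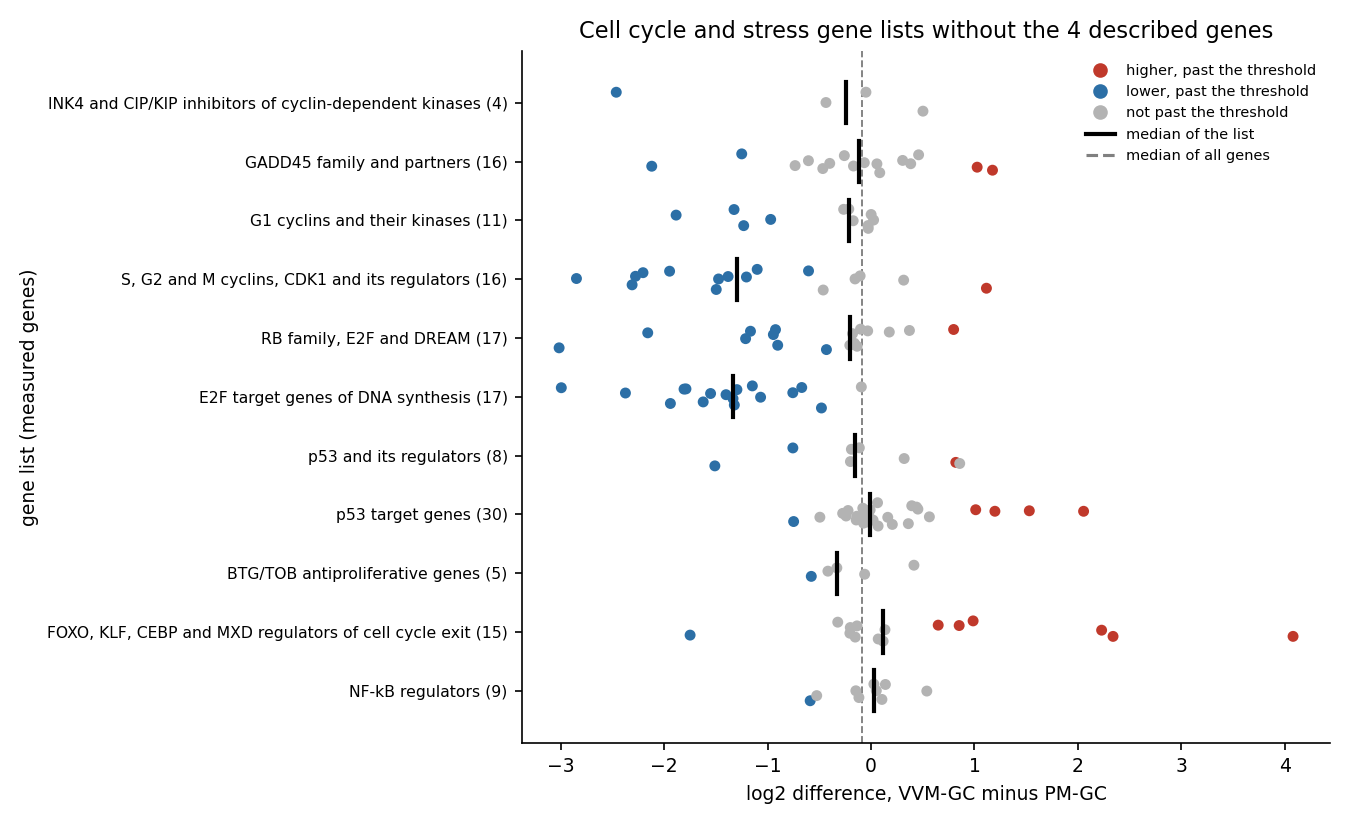
Log2 difference, VVM-GC minus PM-GC, of each measured gene on 11 lists, without CDKN1A, GADD45A, GADD45B and CDKN2C; points are genes, black bars list medians and the dashed line the median of all genes, -0.09. The lists of DNA synthesis genes and of S, G2 and M cyclins lie furthest to the left, with medians of -1.33 and -1.29.

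The genes most like each of the 4 in pattern were found by the root mean square difference over the 8 arrays, after each gene was set to its own PM-GC mean. These use the same contrast and are a description. For CDKN1A they were TTYH2 (0.211 log2 units), TES (0.254), which encodes a protein of focal adhesions, and RAB33A (0.261), a small GTPase. For GADD45A they were further off, GFPT2 (0.594), RARRES1 (0.649) and CRISPLD2 (0.657). For GADD45B they were GPM6B (0.285), CRISPLD2 (0.286) and the transcription factor RUNX1 (0.301), each of which was lowest in array 3 within VVM-GC: GPM6B read 7.61 there against 9.30 to 9.52 in the other 3 arrays, and RUNX1 8.42 against 9.56 to 10.39. For CDKN2C they were CEP192 (0.144), a centrosome protein, SENP7 (0.224), a SUMO protease, and FERRY3 (0.224).

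Markers of other cell types were summed too. Of the sums given here, those of surface epithelium, higher in VVM-GC, and of erythrocytes, lower in VVM-GC, did not overlap between the groups. The rest overlapped. The summed intensity of 9 endothelial markers was 468 to 1042 in VVM-GC and 506 to 608 in PM-GC. That of 9 oocyte markers was 671 to 937 in VVM-GC and 677 to 832 in PM-GC. With limma 0 of either passed, and at an unadjusted p under 0.05 there were 2 endothelial and 0 oocyte markers. Of all 14132 genes, 2162 were higher and 2853 lower at that unadjusted threshold. For 6 theca markers the sums were 883 to 1138 in VVM-GC and 1046 to 1947 in PM-GC, with 2 lower. These 2 were COL15A1, at -1.22 with its main probe set but 3.68 higher with its other, and CYP17A1. The other probe set of CYP17A1 differed by 0.08 and did not pass. For 6 stromal markers the sums were 676 to 1222 in VVM-GC and 691 to 799 in PM-GC, with 1 higher. For 7 surface epithelium markers they were 957 to 1557 in VVM-GC and 728 to 909 in PM-GC, with 2 higher and a median difference of -0.05. These 2 were KRT18, at 2.25 with its main probe set but -0.24 with its other, and KRT19, at 1.32 with 1 of 3 probe sets higher. For 4 erythrocyte markers the sums were 352 to 1505 in VVM-GC and 1683 to 2333 in PM-GC, with 2 lower. The part of these cells in the differences above was not tested.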

How the data were processed

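Total RNA of 8 samples of rhesus macaque granulosa cells was amplified over repeated cycles and put on 1 array each, per the labels' protocols. The authors deposited intensity values made with Affymetrix Expression Console and RMA, per the submitters' processing notes; their settings and version numbers are not stated there. The deposited values are linear, so log2 was taken and nothing else was changed. The table's 52865 rows hold 99 array controls, left out, and 52766 probe sets, of which 24956 had 1 gene symbol, 361 several and 27449 none. Symbols were updated by gene ID through a RefSeq table, which held 24616 of the 24956. Each of 14132 genes was represented by its main, that is on average brightest, probe set; 6375 genes have several.

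Groups were compared with limma 3.58.1 (lmFit, eBayes) in R 4.3.3, with Benjamini-Hochberg adjustment over all genes or all probe sets. The procedure was tested on simulated data. Detection calls were not used here, and precision is limited by the 4 arrays per group. The genes described and the 11 gene lists were chosen with earlier results of these data known. Named genes were all probe sets of the 4 genes, every measured CDK inhibitor and GADD45 gene, 14 index partners, of which 12 were measured, and for each other list up to 2 per direction past the threshold without overlap. Samples were grouped by title. Same-numbered samples of the groups did not deviate together (correlations of deviations from the group means 0.0111, 0.165, 0.0499 and -0.0261), so the numbers were not taken as pairs. Alternatives were averaged probe sets, 32 added to each intensity, other normalizations, a filter on low signals, another variance model, a replicate block and leaving out each array.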

Additional observations from a re-analysis of the deposited data

Results flagged for a closer look

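Within a group of 4 arrays, 1 array stood apart from the other 3 (by Dixon's criterion) in 8 of 90 groups examined, where chance gives about 1 in 20. In VVM-GC array 3, GADD45B read 10.31 with its main probe set, against 11.45 to 11.57 in the other 3 arrays, CEBPB read 11.48 against 12.36 to 12.52, and TET1 read 5.99 against 4.72 to 4.84. In VVM-GC array 4, CDKN1B read 8.50 against 7.60 to 7.69. In PM-GC array 4, CDKN2A read 6.60 against 6.13 to 6.20 and GADD45GIP1 read 7.83 against 7.15 to 7.21. POLK read 6.54 in PM-GC array 2, against 7.09 to 7.18, and TOB2 read 9.09 in PM-GC array 1, against 8.49 to 8.59.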

How the results depend on the processing

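The differences of CDKN1A, GADD45A, GADD45B and CDKN2C kept their sign in every alternative, and 1 moved by more than the spread between arrays: GADD45A, at 1.52 with its probe sets averaged. Leaving out 1 array at a time gave 3.61 to 3.76 for CDKN1A, 3.92 to 4.55 for GADD45A, 3.90 to 4.32 for GADD45B and -0.95 to -0.61 for CDKN2C, and 1297 to 1575 genes higher and 1374 to 1773 lower. It gave counts for CDK inhibitors of 0 to 1 higher and 1 to 2 lower, p53 targets 2 to 5 higher, p53 regulators 1 to 2 higher, RB and E2F genes 0 to 1 higher, FOXO and related factors 1 to 2 lower, BTG and TOB genes 0 to 1 lower, NF-kB regulators 0 to 1 lower, and S, G2 and M genes 0 to 1 higher. With probe sets averaged, BTG and TOB genes had 0 lower, NF-kB regulators 0 lower and RB and E2F genes 0 higher. With 32 added to each intensity, 2 p53 targets were higher. After repeated quantile normalization, 2 FOXO and related factors were lower. With genes under the median signal left out, which tests fewer genes, GADD45 partners had 1 lower, NF-kB regulators 0 lower, p53 regulators 2 higher and 0 lower, p53 targets 1 higher and 0 lower, and RB and E2F genes 3 lower. With the replicate number as a block, NF-kB regulators had 0 lower, RB and E2F genes 0 higher and S, G2 and M genes 0 higher. The cause of the other changes was not tested. Of 37 further named genes, 32 kept their call in every alternative that tested them; CCNA1, PMAIP1, TOB2, CDKN1B and CDKN2D did not. Of the genes named after their values were seen, TFDP1, NFKB2, FAS and MXI1 did not either.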
